A study of Mus musculus with 80 samples.

Results

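The 9 genes Gata4, Gata6, Sox17, Sox7, Foxa2, Pdgfra, Dab2, Afp and Cubn, which mark primitive endoderm, were followed while mouse embryonic stem cells (ESCs) moved from serum to 2i. They were taken from the expression table by their symbols, whatever their values, and all 9 were found among its 25965 rows. Bins of the H3K9me2 table that overlap the genes were added, 278 of 1026637 bins. The series holds 80 samples, of which the 12 RNA-seq and 9 chromatin immunoprecipitation (ChIP-seq) samples were used here. All came from wild-type E14, an ESC line of the mouse, and no group carried a deletion or a transgene. Serum ESCs grew in DMEM with fetal calf serum and LIF, the cytokine that holds ESCs undifferentiated. 2i ESCs grew without serum in N2B27 with LIF, the MEK inhibitor PD0325901 and the GSK3 inhibitor CHIR99021. RNA-seq had 3 libraries each in serum and after 6, 24 and 72 h of 2i. ChIP-seq was aimed at histone H3 carrying 2 methyl groups on lysine 9 (H3K9me2) and had 2 bound libraries and 1 input each in serum, at 24 h of 2i and in long-term 2i (LT2i). The change of medium removed serum and added both inhibitors at once, so that their effects cannot be told apart. The RNA came from whole cultures of a single line, in which fewer cells of a type and less RNA per cell cannot be told apart.

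Primitive endoderm is the layer of the blastocyst that faces the cavity and later forms the visceral and parietal endoderm of the yolk sac. Inner cell mass cells that receive fibroblast growth factor (FGF) through the MEK and ERK kinases take this fate by raising Gata6, then Gata4, Sox17, Sox7 and the receptor Pdgfra, whereas cells that keep Nanog form the epiblast. Dab2 and Cubn belong to the endocytic machinery by which visceral endoderm takes up nutrients, Foxa2 acts in visceral and definitive endoderm, and Afp is secreted by visceral endoderm. ESCs in serum are known to be mixed for Nanog and Gata6, and an inhibitor of MEK blocks the signal that drives primitive endoderm.

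These were low genes in an ESC background. The deposited values are log2 reads per gene corrected for length and depth, so levels are compared between genes per length. The levels of the 9 genes were summed unlogged and the sum is given as log2, as for all marker sums here. It lay between 2.53 and 2.59 in serum and between 2.40 and 2.51 after 6 h of 2i. After 24 h it lay between 1.97 and 2.05 and after 72 h between 1.96 and 2.25. The sum runs over genes that moved in different directions. From serum to 24 h the mean of Dab2 went from 0.90 to -0.25 and that of Cubn from 0.10 to -2.98, while that of Gata4 went from -0.70 to -0.12. Of 5 sets of markers for other cell types, mesoderm, neural and fibroblast markers had lower sums at 72 h than in serum, and trophoblast and definitive endoderm markers had higher sums, given further on. A sum follows its highest members, and single markers ran otherwise. In the mesoderm set Eomes lay at 0.43 to 0.82 in serum and 0.95 to 1.16 at 72 h. T and Hand1 were lower in every 72 h library than in any serum library, and Mixl1 and Mesp1 overlapped. The summed level of 5 mesoderm markers lay between 2.14 and 2.42 in serum, 0.78 and 0.92 at 24 h and 1.74 and 1.91 at 72 h. That of 5 neural markers lay between 3.10 and 3.35 in serum and 2.11 and 2.64 at 72 h, and that of 5 fibroblast markers between 3.00 and 3.38 in serum and 2.20 and 2.40 at 72 h. None of these markers was at 0 in all libraries, and their part in the sum of the 9 genes was not tested. The summed level of 5 ESC markers stood between 9.58 and 10.3 in the 12 libraries. The RNA libraries held 10535604 to 15552645 reads on genes as recovered from the values, and the 75th percentile of the values was equal in all of them. The replicate 3 libraries of serum, 6, 24 and 72 h deviated together from the other replicates of their groups. The closest were those of 24 h and 72 h. Afp had no read in any library, and the upper limit taken for the expected count behind 0 reads was 3 a library. The transcript of this visceral endoderm gene was thus not detected.

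Tests were limma fits over all genes with Benjamini-Hochberg adjustment, and a gene was called at an adjusted p under 0.05. Only Gata4, Gata6 and Dab2 had a mean log2 level of at least -1 over the 12 libraries and entered the filtered fit of 12743 genes. The values of Sox17, Sox7, Foxa2, Pdgfra and Cubn come from the fit without a filter, over 19814 genes with reads. Cubn and Pdgfra, at mean levels above the minimum in serum and at 6 h, were left out of the filtered fit by their levels at 24 and 72 h.

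No member was called by limma of the 3 in the filtered fit at 6 h of 2i, with 1 (Dab2) at an unadjusted p under 0.05, where 8.87% of all genes were higher and 6.13% lower. Without the filter 1 of 8 members was higher at 6 h and 0 lower, beside 7.15% of all genes higher and 4.54% lower. At 24 h the filtered fit called 1 member higher and 1 lower of 3 (33.5% and 28.2% of all genes), and the fit without a filter called 2 higher and 3 lower of 8 (25.6% and 21.8%). At 72 h 1 member was higher and 1 lower of 3 in the filtered fit (24.9% and 25.8% of all genes), and 1 higher and 2 lower of 8 without the filter (20.4% and 20.7%). The members thus divided in direction: Gata4 was called higher at 24 and 72 h, Sox17 at 24 h and Foxa2 at 6 h, Cubn and Dab2 were called lower at 24 and 72 h and Pdgfra at 24 h, and Gata6 and Sox7 were called at none of these times.

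**Figure D1:**
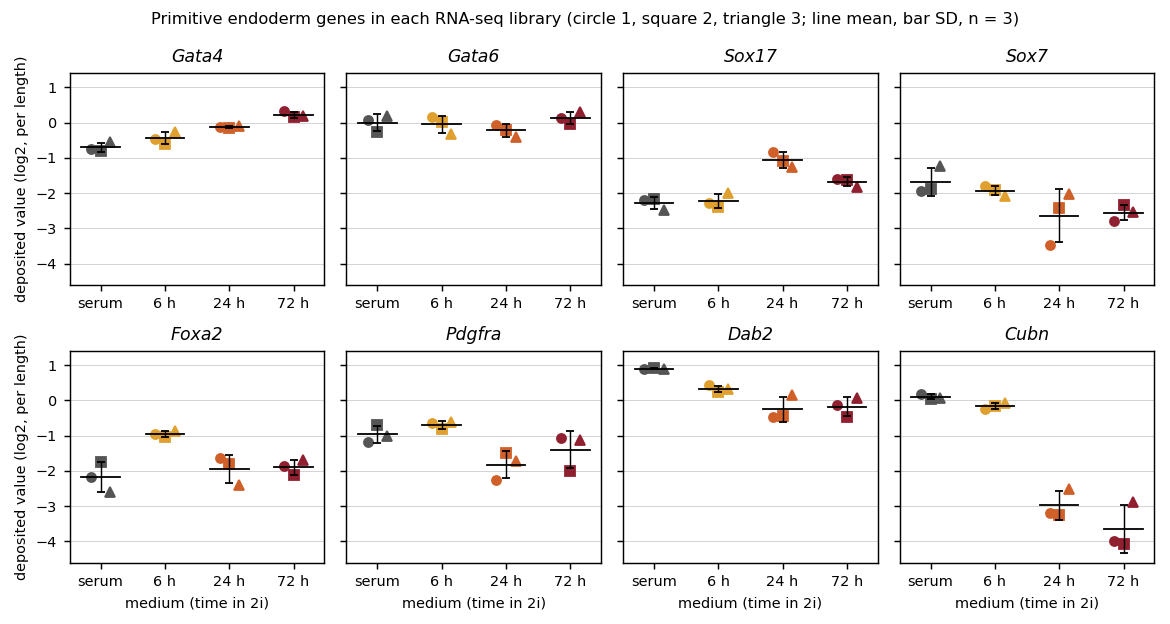
Deposited log2 level per length (vertical axis) of the 8 members with reads in serum and at 6, 24 and 72 h of 2i, 1 panel a gene. Each point is a library (circle, square and triangle for replicates 1, 2 and 3), with the mean and SD of 3 libraries. Cubn drops from 0.05 to 0.18 in serum to -3.25 to -2.50 at 24 h, the mean of Gata4 is -0.70 in serum and 0.22 at 72 h, and the Gata6 libraries stay between -0.41 and 0.29.

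The GATA factors opened different courses. GATA4 is a zinc finger factor that switches on endoderm genes (chr14:63198922-63271692 in GRCm38, minus strand). Gata4 read -0.74, -0.80 and -0.55 in the serum libraries and -0.47, -0.61 and -0.27 at 6 h. It read -0.12, -0.15 and -0.09 at 24 h and 0.32, 0.16 and 0.18 at 72 h. The groups of serum, 24 h and 72 h did not overlap, and those of serum and 6 h did. The log2 change from serum was 0.24 ± 0.15 (SE, adjusted p = 0.353) after 6 h. Gata4 had risen by 0.57 ± 0.15 (0.00611), or 1.49-fold, after 24 h and by 0.92 ± 0.15 (0.000371), or 1.89-fold, after 72 h. These levels rest on 35 to 61 reads a library in serum and 81 to 112 at 72 h. With the trend of the values over gene span removed, Gata4 at 24 h came to 0.90.

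GATA6 stands at the head of the primitive endoderm programme (chr18:11052510-11085635, plus strand). Gata6 read 0.07, -0.28 and 0.20 in serum, 0.16, 0.01 and -0.32 at 6 h, -0.06, -0.20 and -0.41 at 24 h, and 0.12, -0.05 and 0.29 at 72 h. The 24 h libraries all lay below those of 72 h by a narrow gap, and every other pair of groups overlapped. Its change from serum was -0.05 ± 0.19 after 6 h (adjusted p = 0.941), -0.22 ± 0.19 after 24 h (0.322) and 0.12 ± 0.19 after 72 h (0.618). These levels rest on 41 to 84 reads a library.

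Among the SOX factors, SOX17 acts downstream of the GATA factors in primitive and definitive endoderm (chr1:4490928-4496413, minus strand). Sox17 read -2.19, -2.16 and -2.47 in serum and -2.29, -2.40 and -2.01 at 6 h. It read -0.83, -1.10 and -1.26 at 24 h and -1.60, -1.62 and -1.83 at 72 h. Every library of 24 h and 72 h lay above every library of serum and 6 h. In reads, 11 to 13 a library in serum became 26 to 30 at 24 h. The change from serum was 0.04 ± 0.22 at 6 h (adjusted p = 0.978), 1.21 ± 0.22 at 24 h (0.00101), which is 2.31-fold, and 0.59 ± 0.22 at 72 h (0.0517). The change at 72 h was called under 3 of 15 alternatives, a pseudocount of 1 (adjusted p = 0.024), the trend over gene span removed (0.0418) and no mean-variance trend (0.0139). The summed level of 5 definitive endoderm markers, of which Sox17 and Foxa2 are members, moved as well, from -0.54 to 0.23 in serum to 1.27 to 2.44 at 24 h and 2.02 to 2.90 at 72 h. Of these markers none was at 0 in all libraries. Cxcr4 and Gsc are a receptor and a homeobox factor of definitive endoderm. Both, and Sox17, were higher in every 24 h library than in any serum library. Foxa2 and Cer1 overlapped between these groups, with Cer1 at -5.31 to -4.91 in serum and -5.09 to -3.68 at 24 h. Gsc was the highest of the 5 at 72 h (1.33 to 2.51). The part of these markers in the Sox17 level was not tested.

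SOX7 is a relative of SOX17 found in primitive and parietal endoderm (chr14:63943674-63950732, plus strand). Sox7 read -1.95, -1.88 and -1.24 in serum, -1.81, -1.92 and -2.07 at 6 h, -3.48, -2.41 and -2.02 at 24 h, and -2.79, -2.35 and -2.53 at 72 h. All libraries of 24 and 72 h lay below all libraries of serum. The change was -0.25 ± 0.36 at 6 h, -0.95 ± 0.36 at 24 h (adjusted p = 0.0506) and -0.86 ± 0.36 at 72 h (0.0788), so none was called. The fall at 24 h was called under 7 of 15 alternatives, namely the replicate number as a block (adjusted p = 0.0361), without 24 h replicate 3 (-1.26, 0.0126), a pseudocount of 1 (0.0309), quantile normalisation (0.0176), median centring (0.0353), the trend over gene span removed (0.0251) and no mean-variance trend (0.0428). Under the other 8 the adjusted p was 0.0506 to 0.195. At 72 h Sox7 was called with a pseudocount of 1 alone (0.0331). The counts behind these values were 14 to 32 reads a library in serum and 5 to 18 at 24 h.

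Foxa2 rose early and fell back. FOXA2 is a forkhead factor that opens chromatin at endoderm genes (chr2:148042877-148046969, minus strand). Foxa2 read -2.16, -1.75 and -2.59 in serum, -0.94, -1.05 and -0.86 at 6 h, -1.63, -1.80 and -2.39 at 24 h, and -1.86, -2.13 and -1.70 at 72 h. The 6 h libraries lay above all others. The rise at 6 h was 1.21 ± 0.28 (adjusted p = 0.0161), or 2.32-fold, on 21 to 25 reads a library against 9 to 11 in serum. At 24 h and 72 h the changes from serum were 0.22 ± 0.28 (0.559) and 0.27 ± 0.28 (0.505). The call at 6 h was lost without serum replicate 1 (adjusted p = 0.052), serum replicate 3 (0.0613), 6 h replicate 1 (0.0547) or 6 h replicate 3 (0.0614), with changes of 1.00 to 1.22.

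PDGFRA is the receptor for platelet-derived growth factor that sits on primitive endoderm cells (chr5:75152291-75198204, plus strand). Pdgfra read -1.18, -0.69 and -1.02 in serum, -0.65, -0.82 and -0.60 at 6 h, -2.25, -1.50 and -1.72 at 24 h, and -1.07, -2.01 and -1.13 at 72 h. The 24 h libraries lay below those of serum and 6 h, while at 72 h replicate 2 was low and the other two were within the serum range. The change was 0.27 ± 0.29 at 6 h (adjusted p = 0.716), -0.86 ± 0.29 at 24 h (0.0315), 1.82-fold lower, and -0.44 ± 0.29 at 72 h (0.268). Without serum replicate 2 (adjusted p = 0.107), serum replicate 3 (0.064) or 24 h replicate 1 (0.118), or with the libraries of serum and 24 h alone (0.0554), the fall at 24 h was no longer called.

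Both endocytic genes fell. DAB2 is the adaptor that couples megalin and cubilin to clathrin (chr15:6299788-6440712, plus strand), and Dab2 was the most abundant member per length in serum. It read 0.90, 0.92 and 0.89 in serum, 0.43, 0.25 and 0.31 at 6 h, -0.47, -0.44 and 0.14 at 24 h, and -0.12, -0.47 and 0.06 at 72 h. No 2i library reached the level of a serum library. The change was -0.58 ± 0.19 at 6 h (adjusted p = 0.0668), -1.16 ± 0.19 at 24 h (0.000354), 2.23-fold lower, and -1.08 ± 0.19 at 72 h (0.000643), 2.12-fold lower. The 6 h change was called with the replicate number as a block (adjusted p = 0.0398) and under 5 other alternatives (0.00556 to 0.0362). With the trend over gene span removed, the change of Dab2 at 24 h was -0.75.

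CUBN, or cubilin, is an endocytic receptor of visceral endoderm that can bind vitamin B12 with intrinsic factor and other ligands (chr2:13276338-13491924, minus strand). Cubn read 0.18, 0.05 and 0.08 in serum and -0.25, -0.15 and -0.08 at 6 h. At 24 h it read -3.19, -3.25 and -2.50, and at 72 h -4.00, -4.07 and -2.87. Its 190 to 286 reads a library in serum became 22 to 46 at 24 h and 13 to 31 at 72 h. The change was -0.26 ± 0.33 at 6 h (adjusted p = 0.769), -3.08 ± 0.33 at 24 h (2.71e-05), 8.47-fold lower, and -3.75 ± 0.33 at 72 h (5.04e-06), 13.5-fold lower. This was the largest change of the 8 members. With a pseudocount of 1 added to the levels, a scale that understates the changes of low genes, Cubn changed by -0.88 at 24 h and -0.93 at 72 h. On that scale Dab2 changed by -0.64 and -0.60 and Gata4 by 0.25 and 0.42 at these times, Sox17 by 0.29 and Pdgfra by -0.24 at 24 h and Foxa2 by 0.31 at 6 h, all of them called. At 24 h and 72 h replicate 3 was the highest library for Cubn and for Dab2. The RNA kit does not mark strand, and the genes in the table that overlap Cubn and Dab2 on the opposite strand had no read in any library.

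**Figure D2:**
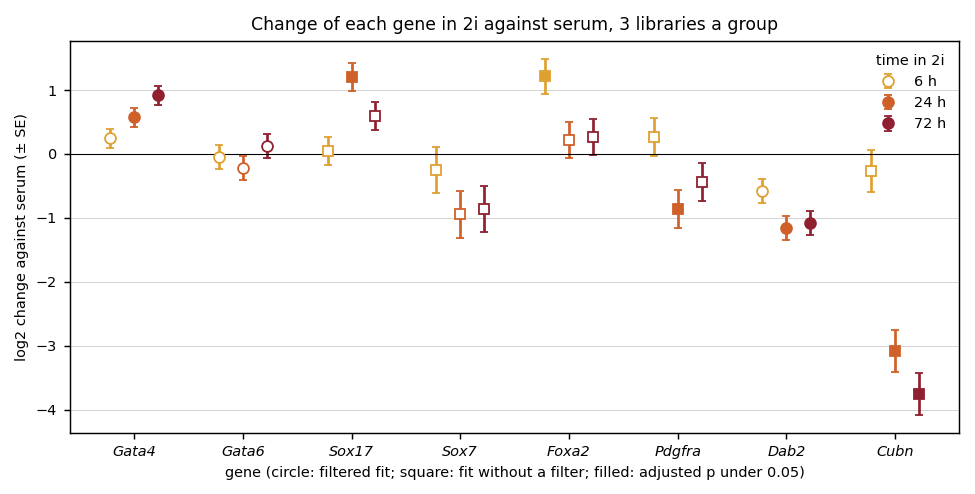
Log2 change against serum with its SE (vertical axis) for the 8 members with reads at 6, 24 and 72 h of 2i, 3 libraries a group. Circles come from the filtered fit and squares from the fit without a filter, and filled marks have an adjusted p under 0.05. Cubn reaches -3.75 at 72 h while Sox17 peaks at 1.21 at 24 h and Foxa2 at 1.21 at 6 h.

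The order of levels per length changed with the medium. In serum the order by mean log2 level was Dab2 (0.90), Cubn (0.10), Gata6 (-0.00), Gata4 (-0.70), Pdgfra (-0.96), Sox7 (-1.69), Foxa2 (-2.16) and Sox17 (-2.27). In this order the libraries of Cubn and Gata6, of Gata4 and Pdgfra, of Sox7 and Foxa2, and of Foxa2 and Sox17 overlapped. At 72 h the first 3 were Gata4 (0.22), Gata6 (0.12) and Dab2 (-0.18), whose neighbours in the order overlapped. They were followed at a gap by Pdgfra (-1.40), Sox17 (-1.68) and Foxa2 (-1.90), and Cubn (-3.65) had moved to the end.

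The step from 6 h to 24 h was tested directly, a comparison added after the data were seen. In the fit without a filter 1 of 8 members was higher at 24 h than at 6 h, beside 21.5% of all genes, and 4 were lower, beside 21.3%. Sox17 rose by 1.17 ± 0.22 (adjusted p = 0.00173). Cubn changed by -2.82 ± 0.33 (9.54e-05), Pdgfra by -1.13 ± 0.29 (0.00974) and Foxa2 by -0.99 ± 0.28 (0.0153), the last not called without 6 h replicate 3 (0.0507). Dab2 changed by -0.58 ± 0.19 (adjusted p = 0.0217 in the filtered fit). That call was lost without 6 h replicate 1 or 3 or without 24 h replicate 1 or 2 (0.0511 to 0.0794) and with the libraries of 6 h and 24 h alone (0.0571), and with the trend over gene span removed the change was -0.13 (0.419).

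From 24 h to 72 h limma called no member, of 3 in the filtered fit (30.9% of all genes) or of 8 without the filter (23.6%). An unadjusted p under 0.05 was reached by Gata4 in the first and Sox17 in the second. Sox17 changed by -0.62 ± 0.22 (adjusted p = 0.0644) and without 24 h replicate 3 by -0.72 (0.0416), and it was also called with a pseudocount of 1 (0.00685) or no mean-variance trend (0.0208). Cubn changed by -0.67 ± 0.33 (0.161) and without 72 h replicate 3 by -1.06 (0.0214), and it was also called with the trend over gene span removed (-0.91, 0.0287). Gata4 changed by 0.34 ± 0.15 (0.0995), called with no mean-variance trend (0.0456).

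The genes whose values ran most like the tested members over the 12 libraries were found by Pearson's r, which is given as a description since all share the libraries and their depth. For Gata4 they were Fads2 (r = 0.975), a fatty acid desaturase, Ttc7b (0.975) and Dnase2a (0.974). For Dab2 they were B3galnt2 (0.988), an enzyme that glycosylates dystroglycan, Ttll4 (0.983), which adds glutamates to tubulin, and Fam98a (0.978). For Gata6 the highest were 1700101E01Rik (0.815), Arfip1 (0.768) and Zfp786 (0.707).

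Cubilin works with megalin, the product of Lrp2, and with amnionless, the product of Amn. Among 7 PDGF and endocytic partner genes, all tested, 3 were higher and 1 lower at 6 h, beside 8.87% and 6.13% of all genes. At 24 h 2 were higher and 2 lower (33.5% and 28.2% of all genes), and at 72 h 2 and 3 (24.9% and 25.8%). The median change was 0.43 at 24 h beside 0.10 over all tested genes, and -0.48 at 72 h beside -0.01. Lrp2 fell by 0.95 after 6 h (adjusted p = 0.0347), 3.50 after 24 h (1.66e-06) and 4.37 after 72 h (1.95e-07) as log2, 20.7-fold lower at the last time. Lrpap1, the chaperone that carries megalin to the surface, rose by 0.83 at 72 h, and Amn was not called (-0.88, 0.124). The second receptor gene Pdgfrb rose by 2.18 at 72 h. The ligand genes Pdgfa and Pdgfc changed by -0.48 and -1.05 at 72 h, both called.

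Of 9 GATA and SOX relatives 4 were tested. At 6 h 2 were higher and 0 lower, beside 8.87% and 6.13% of all genes. At 24 h 2 were higher and 1 lower (33.5% and 28.2% of all genes), as at 72 h (24.9% and 25.8%), where the list's median was 0.26. Gata2 rose 5.00-fold and Zfpm1, the GATA cofactor FOG1, 2.72-fold by 72 h, while Gata3, a trophoblast factor, fell 2.18-fold. Summed trophoblast markers stood at 3.20 to 3.43 in serum and 5.36 to 5.51 at 72 h, with Gata3 among the 5. Tfap2c, the highest of them, lay at 2.78 to 3.05 in serum and 5.24 to 5.39 at 72 h. Krt7 was higher in every 72 h library than in any serum library, and Cdx2 and Elf5 overlapped.

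Other endoderm genes were mixed in direction, as were all genes of the filtered fit. Of those 8.87% were higher and 6.13% lower at 6 h, 33.5% and 28.2% at 24 h and 24.9% and 25.8% at 72 h. Of 12 visceral endoderm genes 6 were tested, with 1 higher and 1 lower at 6 h, 2 and 2 at 24 h, and 2 and 1 at 72 h (median 0.01). The apolipoprotein gene Apoe rose by 1.08 at 72 h, and the gene that fell was Lrp2. Of 16 parietal endoderm and basement membrane genes 15 were tested, with 3 higher and 0 lower at 6 h, 3 and 6 at 24 h and 3 and 5 at 72 h (median -0.39). Srgn, a proteoglycan core protein, rose by 1.36, Plat, the tissue plasminogen activator, by 0.77 and Nid1 by 0.62. Vim changed by -1.64, Snai1 by -1.41, the keratin gene Krt8 by -0.87 and the laminin gene Lamb1 by -0.56.

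The signal that drives primitive endoderm was followed in 16 FGF and ERK genes, of which 15 were tested. At 6 h 1 was higher and 3 lower, beside 8.87% and 6.13% of all genes. At 24 h 2 were higher and 9 lower (33.5% and 28.2% of all genes), and at 72 h 3 and 7 (24.9% and 25.8%), with a list median of -0.27. Dusp6, the ERK phosphatase that ERK itself induces, stood -5.28 from serum after 6 h and -5.41 after 72 h on the log2 scale. The ETS factor gene Etv4 stood -1.07 from serum after 6 h and -5.69 after 72 h. Spry2, a feedback inhibitor, changed by -1.81 at 72 h. The ligand gene Fgf4 rose by 0.92 at 72 h, Map2k1 by 0.57 and Mapk3 by 0.47. The receptor gene Fgfr2 was lower after 24 h (-1.09) and 72 h (-0.96). Of 10 epiblast genes 6 were higher and 2 lower at 6 h, 6 and 1 at 24 h and 7 and 1 at 72 h (median 1.34). The shares of all genes to set beside these counts are those just given. Prdm14 rose by 2.37, Nanog by 1.72, Tfcp2l1 by 1.68 and Tbx3 by 1.49, and Zfp42 changed by -0.67.

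**Figure D3:**
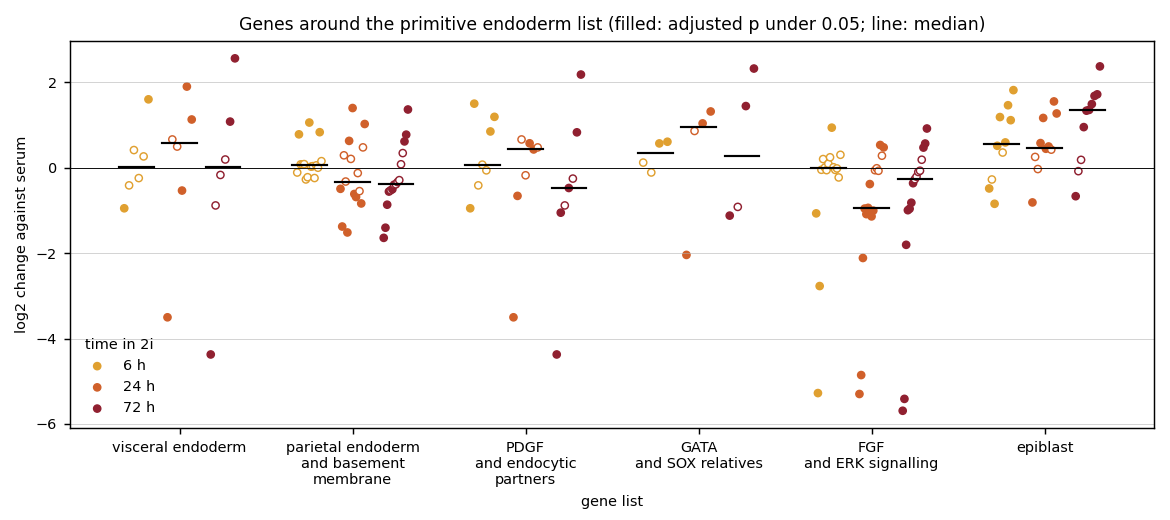
Log2 change against serum (vertical axis) of the tested genes of 6 lists at 6, 24 and 72 h of 2i. Each point is a gene, filled where its adjusted p is under 0.05, and the line is the list's median. The epiblast list has its median at 1.34 at 72 h, and the lowest points are Etv4 (-5.69) and Dusp6 (-5.41).

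H3K9me2, a mark of repressed chromatin, was read as the ratio of bound to input reads, each as a share of its library, over each gene and within 2 kb of its annotated start. There is 1 input a condition, so its error is not part of the spread between the 2 bound libraries. Libraries held 14396552 to 23785128 reads in bins. In serum the ratio was 1.19 over Dab2, 1.17 over Cubn, 1.06 over Pdgfra, 0.952 over Afp, 0.861 over Gata6, 0.801 over Sox7 and 0.586 over Gata4, beside a median of 0.508 over 21543 genes. Sox17 (0.201) and Foxa2 (0.159), both short genes, had 6 to 16 bound reads a library in serum and came under the minimum, a mean of 20 bound reads over the 6 libraries.

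At 24 h of 2i 0 of 7 members tested over the body were called by limma, and 0.00602% of all bodies (1 of 16599), with 1 member (Pdgfra) and 3241 bodies at an unadjusted p under 0.05. Pdgfra stood at -0.36 ± 0.08 (adjusted p = 0.131), from ratios of 1.10 and 1.01 in serum to 0.828 and 0.812, and it was called with a minimum of 100 reads (0.0469).

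In LT2i 4 of 7 members were lower over the body, beside 59.7% of all bodies, and 1 was higher, beside 8.94%. Gata6 went from 1.02 and 0.727 in serum to 0.389 and 0.432 in LT2i, a log2 change of -1.07 ± 0.17 (adjusted p = 0.00259). Gata4 went from 0.617 and 0.557 to 0.315 and 0.30 (-0.93 ± 0.12, 0.00131), Pdgfra from 1.10 and 1.01 to 0.567 and 0.569 (-0.90 ± 0.08, 0.000574) and Sox7 from 0.909 and 0.707 to 0.461 and 0.444 (-0.83 ± 0.15, 0.00375). In each of these genes both LT2i libraries lay below both serum libraries. Dab2 ran the other way, from 1.18 and 1.21 to 1.72 and 1.68 (0.51 ± 0.07, 0.0014). Cubn (0.04 ± 0.07, 0.604) and Afp (0.21 ± 0.14, 0.222) were not called, and Cubn kept ratios of 1.16 to 1.22 in all 6 bound libraries.

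Most gene bodies had a lower ratio in LT2i than in serum. The median change over all tested bodies was -0.61 in LT2i, and the places of the members among all genes changed as well. Dab2 lay above 84.8% of genes in serum and 95.8% in LT2i, Afp above 73.6% and 83.4% and Cubn above 83.7% and 86.1%. Pdgfra went from 78.6% to 67.2%, Gata6 from 69.2% to 60.2%, Sox7 from 66.2% to 62.3% and Gata4 from 54.8% to 53.4%. When each library was centred on its median, 6165 bodies were higher and 3839 lower in place of 1484 and 9902. The members that fell were then no longer called, at -0.22 for Gata4 (adjusted p = 0.141), -0.36 for Gata6 (0.0993), -0.18 for Pdgfra (0.103) and -0.11 for Sox7 (0.479). Dab2 (1.22), Afp (0.92) and Cubn (0.76) were called higher on that scale. Dab2 was thus called higher under both scalings, and the calls of the other members depend on the scaling. Each scaling sets a region against its own library, so a loss shared by all regions is not registered. The paper reports by western blot and immunofluorescence that global levels of the mark were reduced after the change of medium. The rise over Dab2 is thus relative to other regions, and its absolute amount of the mark was not tested.

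The comparison of LT2i with 24 h, added after the data were seen, called 4 of 7 members lower over the body (55.8% of all bodies) and 1 higher (7.68%). The changes were -0.91 ± 0.17 for Gata6, -0.65 ± 0.12 for Gata4, -0.59 ± 0.15 for Sox7, -0.53 ± 0.08 for Pdgfra and 0.40 ± 0.07 for Dab2. With median centring those of Sox7 (0.05) and Pdgfra (0.11) changed sign, Gata4 came to -0.01 and Gata6 to -0.27, and only Dab2 (1.04) kept its call. Sox7 also lost its call without 24 h replicate 1 (-0.49, adjusted p = 0.0817), without LT2i replicate 2 (-0.56, 0.0555) and for the bound libraries alone (-0.39, 0.0977).

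**Figure D4:**
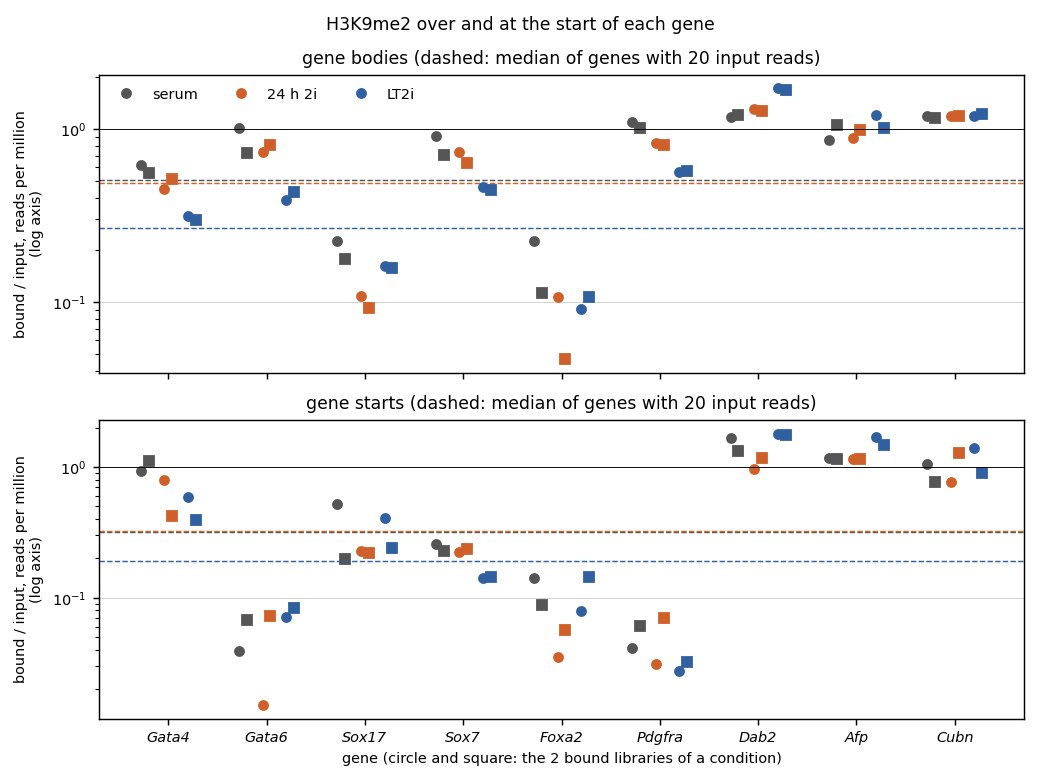
Ratio of H3K9me2 bound to input reads, each as a share of its library, (log axis) over the body (top) and within 2 kb of the start (bottom) of the 9 genes in serum, 24 h of 2i and LT2i. Circles and squares are the 2 bound libraries of a condition, and dashes mark the median of genes with at least 20 input reads. At their starts Gata6 and Pdgfra lie near 0.05 in serum and Dab2 at 1.48, beside a median of 0.318.

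At their annotated starts the members covered nearly the whole range of genes. In serum the ratio was 0.0502 at Pdgfra and 0.0511 at Gata6, from 1 to 3 bound reads a library against 61 and 39 input reads, and 5.33% and 5.61% of 22459 genes lay below them. Foxa2 stood at 0.111, Sox7 at 0.243 and Sox17 at 0.323, near the median of 0.318. Cubn (0.895), Gata4 (1.01), Afp (1.16) and Dab2 (1.48) were higher, and 94.8% of genes lay below Dab2. The starts of Gata6, Pdgfra, Foxa2, Sox7 and Sox17 held too few reads to be tested with the others, and in the fit without a minimum none of them was called. Within 5 kb of the start, where Sox7, Gata6 and Sox17 had enough reads, Sox7 was called lower in LT2i against serum (-1.07, adjusted p = 0.000928) and against 24 h (-0.90, 0.00367), and Gata6 and Sox17 were not called.

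Of 4 members tested at their starts limma called 0 at 24 h (5.95% of all starts), with 2 (Gata4 and Dab2) at an unadjusted p under 0.05. In LT2i 1 was lower, beside 28.5%, and 0 higher, beside 12.9%. With each library centred on its median 2 members were higher and 1 lower, beside 1943 starts higher and 1898 lower of 8987. Within 5 kb of the start 2 of 7 members were higher and 2 lower, beside 1654 starts higher and 7094 lower of 16545. Gata4 went from 0.925 and 1.10 in serum to 0.799 and 0.421 at 24 h (-0.80 ± 0.28, adjusted p = 0.0719) and 0.586 and 0.390 in LT2i (-1.08 ± 0.28, 0.00127). The call in LT2i was lost without serum replicate 2 (-0.95, 0.0553) or LT2i replicate 2 (-0.79, 0.0595), and without 24 h replicate 1 the change at 24 h was called (-1.26, 0.0401). Dab2 read 1.65 and 1.32 in serum, 0.967 and 1.16 at 24 h and 1.80 and 1.75 in LT2i. Against 24 h its rise in LT2i was 0.74 ± 0.20 (adjusted p = 0.0018), 1 of 4 members beside 10.7% of all starts. That call rests on the inputs, since the bound libraries alone gave 0.24 (0.322), and the input reads at the start numbered 96 at 24 h and 45 in LT2i.

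The mark was not even along the genes. Gata6 and Pdgfra were low around the start and higher further in, at 0.926 for Gata6 and 1.10 for Pdgfra beyond 2 kb in serum, and at Pdgfra the low stretch reached upstream, with 0.130 over 2 to 10 kb before the start. The annotated start is the outermost one, which need not be the one in use. In Gata4 the bin with the fewest bound reads lay within the gene, 24.7 kb from that start, with 1 and 0 bound reads in serum against 21 input reads, a bin chosen after its values were seen. In Cubn the ratio was 0.806 in the 2 bins centred within 2 kb of the start, both bound libraries pooled, where the 3 bins that overlap this window gave 0.895 above. It was 1.17 beyond them and 0.218 over the 10 kb past its end.

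**Figure D5:**
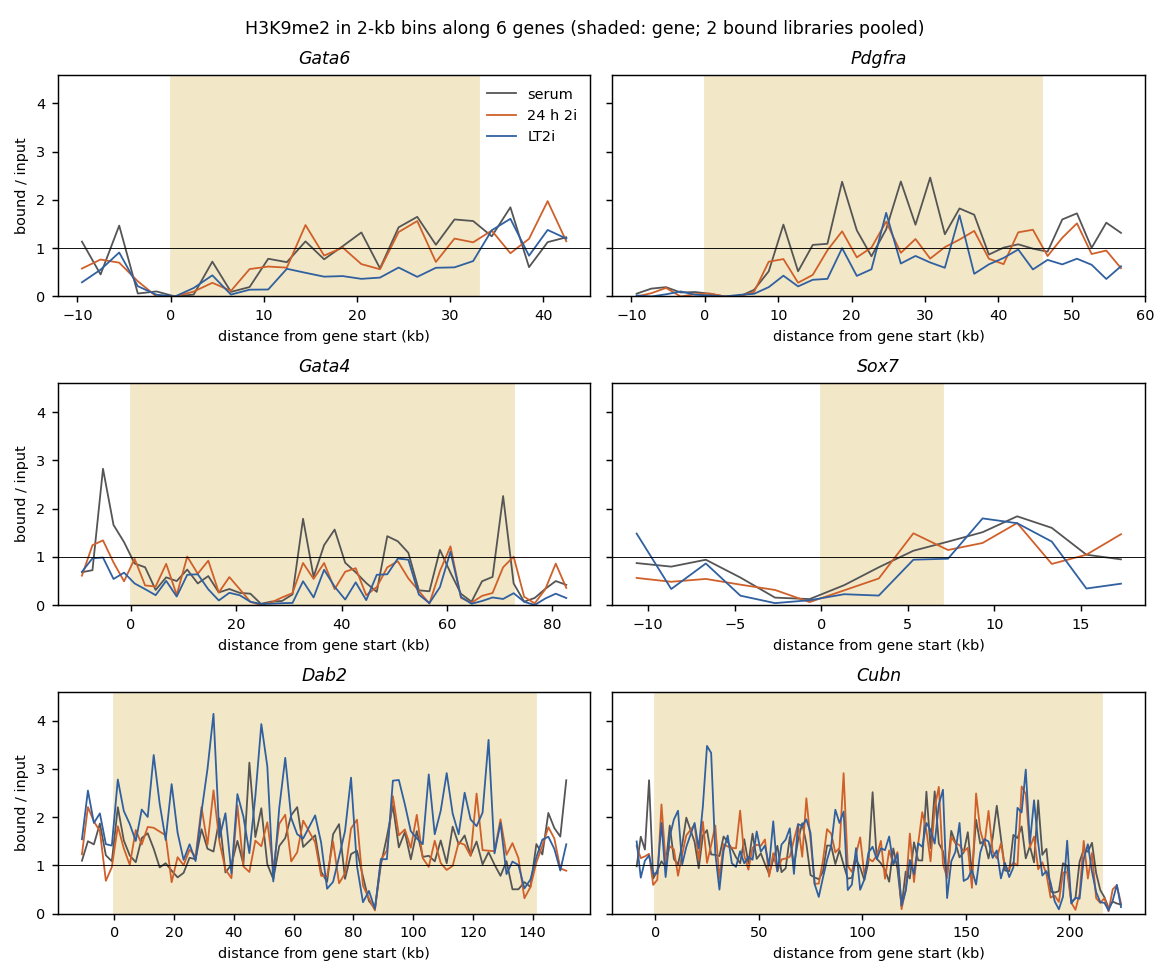
Ratio of H3K9me2 bound to input reads, each as a share of its library, (vertical axis) in bins of 2 kb against the distance from the gene start in kb, for 6 members in serum, 24 h of 2i and LT2i, with the 2 bound libraries pooled and the gene shaded. Gata6 and Pdgfra are near 0 at the start, and Dab2 has a dip near 87.2 kb, where a second promoter lies.

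The promoters of the genes with the largest falls in RNA and of those at the ends of the H3K9me2 range are shown to set their base composition beside the mark. RefSeq promoters (GRCm38.p6, 250 bases before to 50 after the start) were at hand for Foxa2, Pdgfra, Dab2, Afp and Cubn. Gata4, Gata6, Sox17 and Sox7 had no entry. Capitals mark motif letters found on either strand. Those searched were AGATAA, with TGATAA beside it, then AGATAG and lastly TGATAG for GATA factors. For SOX factors they were ACAATG together with ACAAAG, and for forkhead factors TGTTTAC together with TATTTAC. Of 32851 promoters of the same length, 29.8% hold a GATA match, 28.6% a SOX match and 6.54% a forkhead match. The first Dab2 promoter lies at chr15:6299539-6299838, the second at chr15:6386498-6386797, the Cubn promoter at chr2:13491827-13492126 (minus strand), the Pdgfra promoter at chr5:75152001-75152300 and the third Foxa2 promoter at chr2:148045415-148045714 (minus strand).
Dab2 promoter 1: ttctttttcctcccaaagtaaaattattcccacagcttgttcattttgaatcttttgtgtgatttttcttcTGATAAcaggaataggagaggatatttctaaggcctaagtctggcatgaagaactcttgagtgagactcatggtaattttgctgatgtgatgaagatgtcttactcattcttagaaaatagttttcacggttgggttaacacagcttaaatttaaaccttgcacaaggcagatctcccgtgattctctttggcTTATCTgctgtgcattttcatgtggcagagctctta
Dab2 promoter 2: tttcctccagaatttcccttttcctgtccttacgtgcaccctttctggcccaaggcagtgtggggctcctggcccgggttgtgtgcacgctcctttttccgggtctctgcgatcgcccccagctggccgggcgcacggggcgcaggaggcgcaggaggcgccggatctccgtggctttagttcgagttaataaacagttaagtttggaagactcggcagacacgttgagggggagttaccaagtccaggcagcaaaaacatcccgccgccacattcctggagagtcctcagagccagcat
Cubn promoter: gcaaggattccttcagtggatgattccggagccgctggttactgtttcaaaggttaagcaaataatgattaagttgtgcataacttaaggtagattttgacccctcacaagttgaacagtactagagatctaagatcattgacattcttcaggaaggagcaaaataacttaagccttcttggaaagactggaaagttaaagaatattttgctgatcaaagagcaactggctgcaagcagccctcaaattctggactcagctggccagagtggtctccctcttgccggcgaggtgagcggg
Pdgfra promoter: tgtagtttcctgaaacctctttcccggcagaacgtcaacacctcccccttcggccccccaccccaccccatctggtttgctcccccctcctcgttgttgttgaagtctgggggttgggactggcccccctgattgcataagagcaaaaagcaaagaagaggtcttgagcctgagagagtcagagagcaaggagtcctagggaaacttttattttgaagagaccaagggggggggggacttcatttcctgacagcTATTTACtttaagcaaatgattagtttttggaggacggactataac
Foxa2 promoter 3: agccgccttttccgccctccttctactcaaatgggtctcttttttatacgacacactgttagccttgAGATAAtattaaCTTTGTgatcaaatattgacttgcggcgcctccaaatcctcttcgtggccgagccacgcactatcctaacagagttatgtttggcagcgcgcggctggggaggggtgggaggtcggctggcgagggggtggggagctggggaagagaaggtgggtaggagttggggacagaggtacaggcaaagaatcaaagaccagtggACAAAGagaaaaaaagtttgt

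The first Dab2 promoter holds a GATA match on each strand, TGATAA from base -179 and AGATAA on the opposite strand from base 14, counted from the start. The third Foxa2 promoter holds a GATA match at -183 and SOX matches at -171 and 29. The Pdgfra promoter holds a forkhead match at 4, and the Afp promoter a SOX match at -144. No match was found in the promoter of Cubn, in the second promoter of Dab2 or in the other two of Foxa2. These are descriptions of letters and not of binding.

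The 2 Dab2 promoters differ in both base composition and mark. The first holds 2 CG pairs and the second 19, against a median of 7 over all promoters, and they lie 86.96 kb apart. In the 3 bins around the first the H3K9me2 ratio was 1.49 in serum, 1.06 at 24 h and 1.78 in LT2i. Around the second it was 0.464, 0.453 and 0.487, from 17 to 36 bound reads a library. The rise of the ratio over the Dab2 body in LT2i was thus not seen at the second promoter, a difference that was not tested. At the annotated start, in the bins around the first promoter, limma did not call LT2i against serum (0.26 ± 0.20, adjusted p = 0.286). The RNA values sum over the whole gene and do not tell from which promoter the reads came. The promoters of Pdgfra and Cubn had equal CG counts and different ratios. In serum, bound libraries pooled, the ratio was 0.0427 at Pdgfra (2 and 3 bound reads) and 0.909 at Cubn, each with 5 CG pairs. It was 1.16 at Afp with 3 CG pairs and 0.106 to 0.162 at the Foxa2 promoters with 12 to 23. A relation of CG pairs to the mark was not tested.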

How the data were processed

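The authors deposited log2 values for 12 RNA-seq libraries, reads per gene corrected for length and depth and set to a common 75th percentile, and log2 reads per 2-kb bin for 9 H3K9me2 ChIP-seq libraries, scaled to the deepest. Replicates were not pooled. The submitters' processing notes name Trim Galore 0.3.5, TopHat2 2.0.11 and Bowtie2. No source used here names the counter. From the values, a gene or bin without reads was entered as 0.9 reads. Reads were recovered for 19793 of the 19814 genes with reads (99.9%), and all ChIP values came out whole within 0.02. Coordinates are those of GRCm38. The bisulfite files use another build and were not used.

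limma 3.58.1 in R 4.3.3, with a mean-variance trend, was fitted to the 12 RNA libraries together. The filtered fit kept genes with a mean log2 value of at least -1, and members under it were taken from the fit over all genes with reads. H3K9me2 was log2 of bound over input reads, each as a share of its library, after adding 0.5 reads, for regions with a mean of at least 20 bound reads a library and at least 20 reads in each input, with all 6 bound libraries in 1 fit. Fits were tested on simulated data with known changes. Of 100 genes changed by a log2 of 1, the filtered RNA fit recovered 70 and the fit without a filter 37. At a log2 of 2 they recovered 95 and 79. Over H3K9me2 bodies 55 of 100 were recovered at a log2 of 1 and 88 at 2. A member that was not called may thus still have changed. The RNA replicates were described as biological by the study, and the labels of the ChIP replicates do not say whether they were separate cultures, so that those p-values may measure technical spread. The fits took no account of replicate numbers, and a block by number was an alternative. Every same-numbered pair of serum with 6 h and with 24 h deviated together (r = 0.144 to 0.544 and 0.111 to 0.464). In the other comparisons the lowest r of such a pair was 0.061 or less. Some pairs of unlike number correlated more, as serum replicate 2 with 6 h replicate 1 (0.242) and with 24 h replicate 1 (0.334). The replicate 3 libraries of serum, 6, 24 and 72 h all deviated together (r = 0.393 to 0.806). The main fits left this shared part out. A pairing of replicates 1 and 2 by number was not established. All 9 members are named whatever their values. The 3 genes most like each tested member and up to 4 called genes a list and direction with the largest change at 72 h are named as well, and all other genes were chosen after their values were seen. Members, lists and tests were chosen with earlier results of these data known. Intervals of 0 reads cover counting error only. The values of 1 list gene are not reported here.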

Additional observations from a re-analysis of the deposited data

Results flagged for a closer look

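Some members changed by different amounts at 2 times, each tested by limma as the difference between those times. Between 6 h and 24 h of 2i the RNA of Sox17 changed by 1.17 on the log2 scale, and that of Cubn by -2.82, Pdgfra by -1.13, Foxa2 by -0.99 and Dab2 by -0.58. Between 24 h of 2i and LT2i the H3K9me2 ratio over the body changed by -0.91 for Gata6, -0.65 for Gata4, -0.59 for Sox7, -0.53 for Pdgfra and 0.40 for Dab2. With median centring only Dab2 of these genes kept its call, and the values of Sox7 and Pdgfra changed sign. At the start of Dab2 the ratio changed by 0.74 between the same conditions. That call rests on the inputs, since it was lost for the bound libraries alone (0.24). These comparisons were added after the data were seen.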

How the results depend on the processing

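Of the values recomputed under the alternatives, 860 kept direction and side of the threshold, 42 became called, 32 lost their call and 38 changed sign. The causes were not tested. Low counts limit the RNA of Sox17, Sox7 and Foxa2 (5 to 32 reads a library), and the lone inputs H3K9me2. A minimum mean of 1 left no member to test. Fits that combine no filter with another setting, voom on recovered reads and the comparisons with 6 h and of LT2i with 24 h were added after the data were seen.

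At 6 h, 0 of 3 members called became 1 with no filter (of 8), a pseudocount of 1, quantile normalisation, the span trend removed, only the 6 libraries, the replicate block or voom. Without a filter, 1 became 2 with a pseudocount of 1, quantile normalisation, median centring, the span trend removed, only 6 libraries or voom, and 0 to 1 without 1 library. At 24 h, 2 became 5 with no filter and 1 at a log2 change of 1 or more, and 5 without a filter became 3 with only 6 libraries or a log2 change of 1 or more, 4 to 6 without 1 library and 6, by Sox7, with a pseudocount of 1, quantile normalisation, median centring, the span trend removed, the replicate block or no mean-variance trend. At 72 h, 2 became 1 at a log2 change of 1 or more, and 3 without a filter became 5 with a pseudocount of 1, 4 with the span trend removed or no mean-variance trend and 2 at a log2 change of 1 or more. From 24 h to 72 h, 0 became 1 with no mean-variance trend, and without a filter 2 with a pseudocount of 1, 1 with the span trend removed or no mean-variance trend, and 0 to 1 without 1 library. From 6 h to 24 h, 1 became 5 with no filter, 0 with only 6 libraries or a log2 change of 1 or more, 2 with no mean-variance trend and 0 to 1 without 1 library. Without a filter 5 became 3 at a log2 change of 1 or more, and 3 to 6 without 1 library. With the span trend removed the call there was Gata4 and not Dab2.

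Over bodies, 0 became 1 at 24 h with at least 100 reads, and 5 became 3 in LT2i with median centring, against serum and against 24 h. At starts, 0 became 1 at 24 h with the replicate block (Gata4, adjusted p = 0.0446) and 0 to 1 without 1 library. In LT2i 1 became 3 with median centring, 4 of 7 within 5 kb and 0 to 1 without 1 library. Against 24 h 1 became 0 for the bound libraries alone, 2 with median centring and 4 within 5 kb. The ChIP replicates share only a number, with same-numbered libraries correlating at 0.00873 to 0.136. The block changed no other member call than this and those of Dab2 at 6 h and Sox7 at 24 h, and at 72 h against 24 h it moved the count over all genes from 3936 to 5902.

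Sign changed for these values, uncalled except the Sox7 and Pdgfra bodies in LT2i against 24 h. Without 1 library Gata6 ran from -0.18 to 0.089 at 6 h and -0.016 to 0.23 at 72 h, and Sox17 at 6 h from -0.070 (without 6 h replicate 3, -0.057 without serum replicate 3) to 0.12. From 24 h to 72 h Sox7 ran from -0.34 to 0.39 (-0.021 without 72 h replicate 2), Foxa2 from -0.18 to 0.20 (-0.058 without 72 h replicate 3) and Dab2 from -0.040 to 0.28. For H3K9me2 at 24 h Gata6 ran from -0.40 to 0.084 and Afp from -0.17 to 0.12 over the body, and Afp from -0.016 to 0.010 and Cubn from -0.22 to 0.52 at the start. At starts in LT2i Cubn ran from -0.0063 to 0.64 against serum and -0.21 to 0.53 against 24 h, and Gata4 from -0.74 to 0.18 against 24 h. Sox17 at 6 h was -0.17 with quantile normalisation and -0.018 with median centring. The span trend removed gave -0.060 for Foxa2 at 24 h and -0.24 for Dab2 from 24 h to 72 h, where a pseudocount of 1 gave -0.0022 for Sox7. Bound libraries alone gave -0.024 for the Dab2 body at 24 h and -0.058 and -0.019 for the Afp body in LT2i against serum and 24 h. Median centring gave 0.046 and 0.012 for the Afp body and start at 24 h, and 0.051 and 0.11 for the Sox7 and Pdgfra bodies in LT2i against 24 h. Within 5 kb the Cubn start gave -0.072 at 24 h, -0.093 in LT2i and -0.021 in LT2i against 24 h.

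Over all genes, the count called at 6 h was 1911, or 3595 with only 6 libraries, 624 at a log2 change of 1 or more and 1207 to 1419 without 1 library (1207 without 6 h replicate 2, 1234 without serum replicate 1 and 1240 without 6 h replicate 1). For 72 h against 24 h it was 3936, or 1559 with only 6 libraries, 1179 at a log2 change of 1 or more and 2414 (without 72 h replicate 1) to 6792 (without 24 h replicate 3) without 1 library. Without a filter it was 4683, and 3013 to 7640 without 1 of the same libraries. A log2 change of 1 or more left 3368 of 7860 at 24 h, 2559 of 6463 at 72 h and 2702 of 7378 from 6 h to 24 h. Bodies called at 24 h numbered 601 for the bound libraries alone and 364 with at least 100 reads, against 1. Starts called at 24 h numbered 535, or 4 for the bound libraries alone, 86 with no minimum, 110 with no mean-variance trend, 345 within 5 kb and 101 to 182 without any 1 library, and in LT2i 3725, or 2308 without serum replicate 1, 5887 with no minimum and 8748 within 5 kb.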
